A study of Homo sapiens with 6 samples.

Results

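The BRG1 peaks of MR49F were compared with those of LNCaP, site by site. A site was counted as shared when a peak of one line and a peak of the other had at least 1 bp in common, and the remaining peaks of each line are called LNCaP-only and MR49F-only, together single-line. The comparison covers all 80482 BRG1 peaks of the series, 36174 from LNCaP and 44308 from MR49F, out of 153803 peaks in 4 deposited lists. LNCaP is a human prostate adenocarcinoma line derived from a lymph node metastasis and depends on androgen signalling. MR49F is its derivative with resistance to enzalutamide, an antiandrogen drug. MR49F cells were kept in medium with 10 µM enzalutamide, and none is given for LNCaP, so the line and the drug cannot be told apart. Both lines were crosslinked with 2 mM disuccinimidyl glutarate (45 min) followed by 1% formaldehyde (10 min), and 4 µg of antibody went into each precipitation. The series has 6 samples, with 1 BRG1, 1 SMARCC2 and 1 input library per line. The inputs were not analysed here, and SMARCC2 is used only as a second readout at the BRG1 sites. Whether MR49F is a single clone is not given in the sources used here.

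BRG1, encoded by SMARCA4, is one of the alternative ATPases of SWI/SNF, the complex that uses ATP to slide and evict nucleosomes and so keeps enhancers and promoters open. SMARCC2 is a scaffold subunit of the same complex. In prostate cells SWI/SNF acts with factors such as FOXA1 and HOXB13 at luminal enhancers, and BRG1 also sits at the nucleosomes that flank active promoters. BRG1 has little sequence preference of its own and is brought to its sites by transcription factors, other subunits and modified histones.

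The single-line sites included gene promoters, and 5 of those promoters are printed to show the range of sequence they cover. The first 4 were taken by rank, as the strongest MR49F-only peaks (SPINT3, CDON) and the strongest LNCaP-only peaks (CNTN3, UBE2L6) whose summit fell inside a listed promoter window, and FOS was added after its values were seen. Each line gives the 250 bases before the gene start, read 5′ to 3′ along the gene, from RefSeq on GRCh38.p14. Capitals mark matches, on either strand, to 10 short motifs: AP-1 (TGANTCA), CRE (TGACGTCA), forkhead (TGTTTAC), E-box (CACGTG), ETS (CCGGAAG), the GC box with the letters GGGCGG, the CCAAT box with those letters, the TATA box spelled TATAAA, the motif of GATA factors read as AGATAA, and that of TEAD factors read as GGAATG.
SPINT3, chr20:45515623-45515872, minus strand: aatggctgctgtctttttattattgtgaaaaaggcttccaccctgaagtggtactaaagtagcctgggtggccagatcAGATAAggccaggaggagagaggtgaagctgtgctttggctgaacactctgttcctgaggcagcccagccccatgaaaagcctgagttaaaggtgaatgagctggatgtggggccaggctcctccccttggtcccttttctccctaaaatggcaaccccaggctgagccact
CDON, chr11:126062442-126062691, minus strand: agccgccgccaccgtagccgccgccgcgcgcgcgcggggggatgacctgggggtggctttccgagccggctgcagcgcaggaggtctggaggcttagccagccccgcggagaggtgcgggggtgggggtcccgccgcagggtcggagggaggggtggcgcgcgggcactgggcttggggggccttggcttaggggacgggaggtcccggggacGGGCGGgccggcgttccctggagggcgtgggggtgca
CNTN3, chr3:74614660-74614909, minus strand: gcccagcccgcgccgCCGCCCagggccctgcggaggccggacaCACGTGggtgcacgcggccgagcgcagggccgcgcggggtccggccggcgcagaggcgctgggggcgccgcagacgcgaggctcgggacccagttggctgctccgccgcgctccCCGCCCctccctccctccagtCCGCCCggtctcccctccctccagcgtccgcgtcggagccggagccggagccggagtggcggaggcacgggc
UBE2L6, chr11:57567936-57568185, minus strand: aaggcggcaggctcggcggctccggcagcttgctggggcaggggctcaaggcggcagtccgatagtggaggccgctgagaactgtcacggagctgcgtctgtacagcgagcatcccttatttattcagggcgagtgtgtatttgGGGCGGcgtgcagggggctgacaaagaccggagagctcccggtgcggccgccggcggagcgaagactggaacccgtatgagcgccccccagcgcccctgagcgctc
FOS, chr14:75278578-75278827, plus strand: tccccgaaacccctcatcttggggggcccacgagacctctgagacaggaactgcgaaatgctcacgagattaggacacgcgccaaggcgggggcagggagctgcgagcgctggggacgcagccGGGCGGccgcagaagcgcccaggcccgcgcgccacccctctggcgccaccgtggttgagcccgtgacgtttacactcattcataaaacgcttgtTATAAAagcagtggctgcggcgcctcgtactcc
The MR49F-only peak at SPINT3, which encodes a Kunitz-type protease inhibitor, had its summit 144 bp before the start with 44 tags, in a stretch with 0 CpG and 1 GATA match. At CDON, a cell surface receptor of the immunoglobulin family, the MR49F-only summit lay 42 bp before the start with 57 tags, in a stretch with 30 CpG and 1 GC box. The LNCaP-only summit at CNTN3, a neural adhesion protein, lay 104 bp before the start with 38 tags, in a stretch with 38 CpG, 3 GC boxes and 1 E-box. At UBE2L6, a ubiquitin-conjugating enzyme that works with ISG15, the LNCaP-only summit lay 54 bp before the start with 40 tags, in a stretch with 24 CpG and 1 GC box. The MR49F-only peak at FOS, the AP-1 transcription factor, reached into the listed window and had its summit 344 bp after the start with 32 tags; the printed bases hold 25 CpG, 1 GC box and 1 TATA box. Thus 4 of these 5 promoters were rich in CpG and 1 was not.

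Tags here are the reads piled up at a summit, solved as whole numbers from each peak's deposited fold enrichment and p-value. They were not scaled for depth between the lines, and both lists had a median of 27 tags at the summit. The lowest was 13 in LNCaP and 10 in MR49F, and the lowest local background, the tag count that the peak caller expected at a site, was 3.31 and 2.62 tags. A line without a peak therefore means only that its reads did not pass the caller's threshold, not that BRG1 was absent. With 1 library per line no value between the lines has a replicate error, no test was made, and intervals in brackets are Wilson 95% intervals that cover counting error only. As a check of the labels, the luminal prostate genes KLK3, KLK2, TMPRSS2, HOXB13, KRT8 and KRT18 each had BRG1 peaks assigned to them in both lines, and the basal keratins KRT5 and KRT14, the fibroblast gene DCN and the leukocyte gene PTPRC had 0 in both. Other markers of those cell types did have peaks, in LNCaP and MR49F respectively 4 and 2 at TP63 (basal), 1 and 2 at COL1A1, 1 and 1 at COL1A2 and at PDGFRB (fibroblast), 1 and 3 at CD3E and 2 and 1 at LYZ (leukocyte).

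Sharing rose with the strength of a site. Of the LNCaP peaks 24335 (67.3%, 66.8 to 67.8) met an MR49F peak and 11839 did not, and of the MR49F peaks 23717 (53.5%, 53.1 to 54.0) met a LNCaP peak and 20591 did not. Among LNCaP summits with fewer than 20 tags 32.7% (31.5 to 33.9) were shared, and among those with 60 or more 98.8% (97.9 to 99.3). The matching MR49F values were 28.5% (27.7 to 29.4) and 83.0% (81.5 to 84.3). Strong MR49F summits thus lacked a LNCaP peak more often than strong LNCaP summits lacked an MR49F peak: 474 of 2781 against 12 of 1012. At shared sites MR49F had a median of 1.06 times the LNCaP tags, with 54.3% of 23123 pairs higher in MR49F, while the authors' fold enrichment had a median of 5.29 in MR49F and 4.18 in LNCaP. Few peaks sat at the edge of the definition. Among 23154 overlapping pairs matched by nearest summit only 79 shared less than 50 bp. Single-line peaks that ended within 50 bp of a peak of the other line numbered 91 in LNCaP and 96 in MR49F. A stricter definition lowered the shares: 41.5% of LNCaP and 33.9% of MR49F peaks were shared when each peak had to cover 50% of the other, and 44.2% and 36.1% when summits had to lie within 200 bp.

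Shared peaks were wider than single-line peaks in both lines. The median width was 870 bp for LNCaP shared peaks (quartiles 588 and 1312), 1035 bp for MR49F shared peaks (680 and 1596), 579 bp for LNCaP-only peaks (446 and 793) and 648 bp for MR49F-only peaks (473 and 953). Single-line peaks were also weaker, with a median of 22 tags in either line against 30 and 31 for shared peaks, and a wide peak meets another by overlap more readily. Compared at equal strength the difference kept its direction in all 6 tag classes of each line, being small among weak peaks and larger among strong ones. It ran from 534 against 493 bp (fewer than 20 tags) to 1650 against 1081 bp (60 or more tags, where only 12 LNCaP peaks were single-line) in LNCaP, and from 574 against 506 bp to 1788 against 1287 bp in MR49F. The same sites were broader in MR49F. Over 21441 pairs in which each peak met no other, the median width was 857 bp in LNCaP and 1008 bp in MR49F, and 12862 of them (59.3 to 60.6%) were wider in MR49F. A LNCaP peak lay wholly inside its MR49F partner in 33.1% of these pairs, and the reverse held in 18.6%. Splitting of one peak into several was uncommon: 1.59% of LNCaP peaks met 2 MR49F peaks and 2.37% of MR49F peaks met 2 LNCaP peaks.

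**Figure D1:**
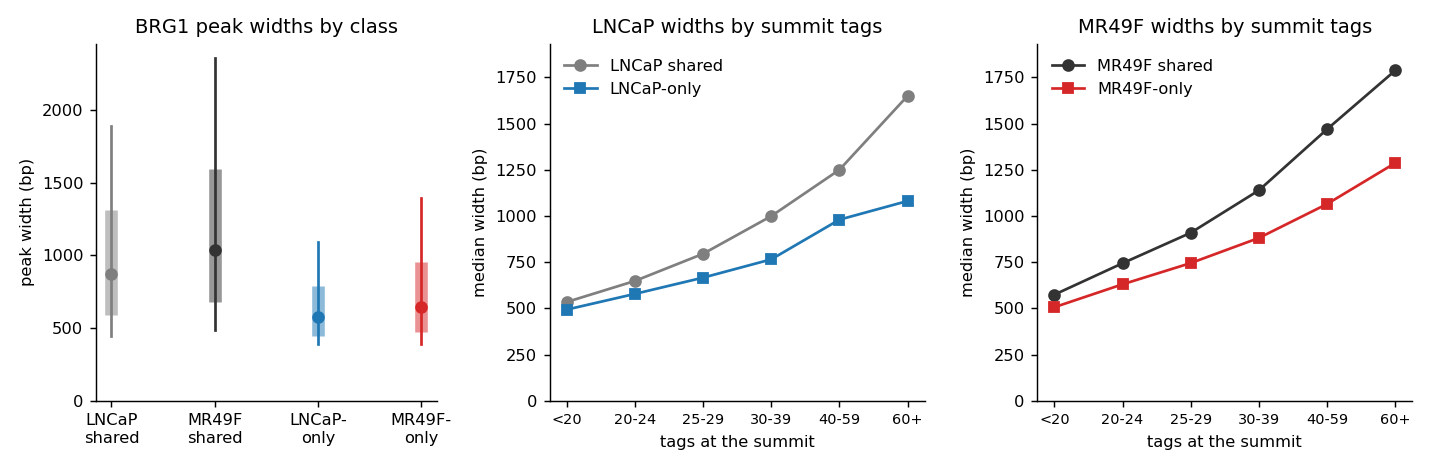
Widths of BRG1 peaks in bp by class (left; point, median; thick bar, quartiles; thin line, 10th to 90th percentile) and median width by tags at the summit in LNCaP (middle) and MR49F (right). Shared peaks, at medians of 870 and 1035 bp, lie above single-line peaks, at 579 and 648 bp, and stay above them within each tag class.

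In 69.1% of paired shared peaks the points of highest BRG1 signal in LNCaP and MR49F lay within 200 bp. Pairs had to overlap and were matched by nearest summit, so peak width and matching limit how large a move can be. Over 23154 pairs of shared peaks the summit moved by a median of 100 bp between the lines, less than the length of DNA around a nucleosome. It moved by at most 100 bp in 50.2% (49.5 to 50.8) and by more than 500 bp in 2365 pairs (10.2%, 9.83 to 10.6). The move had no preferred side of the chromosome, with 50.2% to the right. For comparison, SMARCC2 summits moved by a median of 74 bp between the lines, and BRG1 and SMARCC2 summits of the same line differed by 90 bp in LNCaP and 66 bp in MR49F, which is the nearest this design has to a repeat. The BRG1 shift between lines was thus close to the distance between 2 precipitations from LNCaP alone. Shift depended on strength: it was 164 bp where the weaker line had fewer than 20 tags and 23 bp where it had 60 or more. Accordingly the median was 44 bp among the 10000 strongest peaks of each list. Width mattered less for the median, with 82 bp where the wider peak was under 750 bp and 136 bp where it reached 3000 bp. Moves over 500 bp varied more with width, from 2.02% of pairs under 750 bp to 26.4% at 3000 bp or more. By tags in the weaker line their share was 11.8% below 20 tags, 10.2% from 30 to below 40, and 1.76% at 60 or more.

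**Figure D2:**
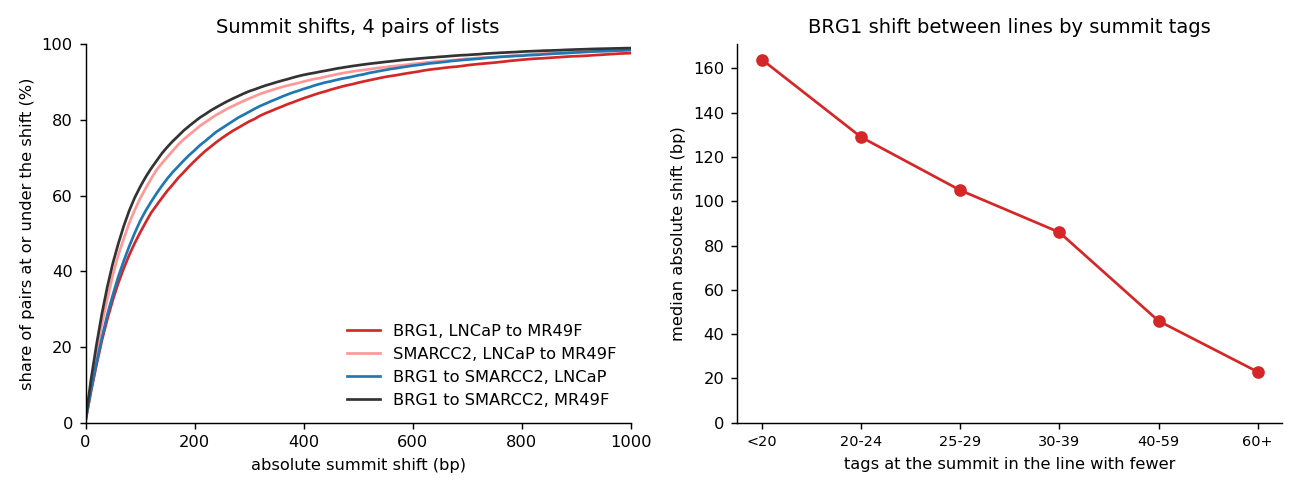
Left, share of paired peaks (%) whose summits differ by at most the distance on the x axis (bp), for BRG1 and SMARCC2 between the lines and for BRG1 against SMARCC2 within each line; right, median BRG1 shift (bp) by tags at the summit in the line with fewer. The BRG1 curve between lines is the lowest, with a median of 100 bp, and the median falls from 164 to 23 bp as tags rise.

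Where BRG1 summits moved far, SMARCC2 summits more often moved to the same side. In each line the overlapping SMARCC2 peak with its summit nearest the BRG1 summit was taken. Part of this pattern can therefore follow from that choice. Where BRG1 moved by 50 bp or less, the SMARCC2 summit at the same site moved to the same side in 50.7% (49.4 to 52.1) of pairs. This share was 62.5% (59.5 to 65.5) for BRG1 moves of 500 to 1000 bp, where SMARCC2 went a median of 60 bp the same way. It was 77.1% (72.1 to 81.4) for moves over 1000 bp, where SMARCC2 went a median of 697 bp the same way over 315 pairs. Among the 1589 pairs whose −log10 q-value reached 20 in both lines only 38 moved by over 500 bp. The 5 largest of these moves lay in broad peaks. At the site assigned to NAAA, a lysosomal amidase, the summit was at chr4:75924587 in LNCaP (53 tags) and chr4:75920484 in MR49F (42 tags), a move of −4103 bp, and SMARCC2 moved by −3204 bp. Near GSE1, a coregulator, it moved by −3620 bp from 93 to 38 tags on chromosome 16, and SMARCC2 by −3680 bp. In the site of ZBTB16, an androgen- and glucocorticoid-induced zinc finger factor, it moved by −3210 bp from 53 to 68 tags, and SMARCC2 by −2829 bp. At PPFIA2, a presynaptic scaffold protein, BRG1 moved by −2838 bp and SMARCC2 by only −239 bp. At TLE1, a corepressor, BRG1 moved by 2834 bp and SMARCC2 by 2036 bp. In 4 of the 5 sites, then, the SMARCC2 summits chosen in LNCaP and MR49F also lay over 1000 bp apart, in the direction of BRG1.

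Shared and MR49F-only sites lay at gene starts more often than LNCaP-only sites. Outside chromosome 8, for which no starts are listed, 23.7% (23.1 to 24.2) of LNCaP shared, 24.1% (23.5 to 24.7) of MR49F shared and 17.5% (17.0 to 18.0) of MR49F-only summits lay within 1 kb of a protein-coding gene start, against 8.62% (8.11 to 9.15) of LNCaP-only summits. Most were just downstream of the start: 70.1% of the LNCaP shared, 73.4% of the MR49F shared and 71.7% of the MR49F-only summits in this range, with median positions of 226, 267 and 244 bp into the gene. LNCaP-only summits were more even, 54.0% (50.8 to 57.1) downstream with a median of 61 bp. At LNCaP summits of 25 to 29 tags, where strength was alike, 28.3% of shared and 10.9% of LNCaP-only peaks were near a start; in MR49F these shares were 27.6% and 22.6%. The order does not hold for the strongest peaks. Among the 10000 strongest of each list 13.6% of LNCaP shared, 16.2% of LNCaP-only and 20.9% of MR49F-only summits were near a start, and with a reciprocal overlap of 50% the LNCaP-only share was 16.3%. Summit shifts between lines were larger at gene starts, with a median of 146 bp against 87 bp elsewhere. Of 5173 moves near a start 53.3% (52.0 to 54.7) went downstream in MR49F. The median signed shift over all pairs near a start was 15 bp downstream.

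**Figure D3:**
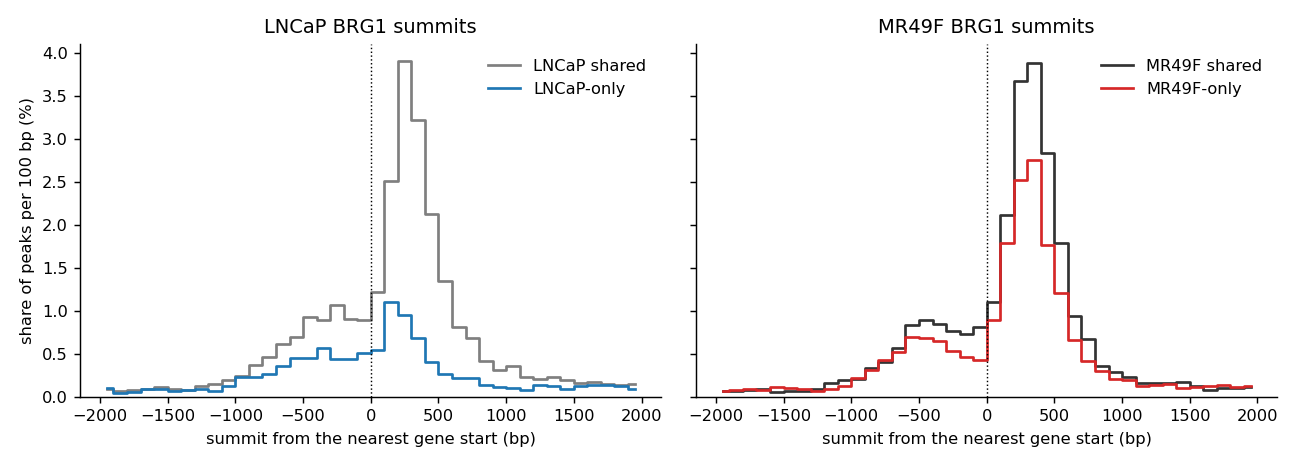
Share of BRG1 peaks per 100 bp (%) by the position of the summit relative to the nearest listed gene start (bp, positive into the gene), for shared and single-line peaks of LNCaP (left) and MR49F (right). Shared and MR49F-only summits pile up downstream of the start, at median offsets of 226 to 267 bp, while LNCaP-only summits, of which 8.62% lie within 1 kb, form a lower profile.

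Promoters with a peak in either line were richer in CpG than those without. Of 22054 listed promoter windows (250 bases before to 50 after the start), 3881 met a BRG1 peak in both lines, 4110 in MR49F only, 1333 in LNCaP only and 12730 in neither. The median number of CpG per window was 30, 28, 25 and 11 in that order, against 21 over all windows. The GC box was in 75.9%, 75.1%, 66.8% and 43.1% of the windows (56.3% of all). The ETS motif, bound by the ETS family of factors, was in 14.6% (13.5 to 15.8) of windows with peaks in both lines, 17.7% (16.6 to 18.9) with MR49F only, 20.9% (18.8 to 23.2) with LNCaP only and 9.77% with neither (12.8% of all). AP-1 was in 4.64%, 3.99%, 5.10% and 7.42% (6.15% of all), the TATA box in 5.0%, 4.57%, 7.13% and 12.7% (9.49%), GATA in 3.66%, 3.6%, 6.08% and 10.8% (7.93%), and the CCAAT box in 27.2%, 35.0%, 32.2% and 37.2% (34.7%). The remaining shares over all windows were 2.25% for CRE, 2.85% for forkhead, 8.32% for the E-box and 12.2% for TEAD. By class, in the order above, CRE was in 2.37%, 2.85%, 4.13% and 1.82% and the E-box in 9.82%, 9.88%, 11.1% and 7.07% of windows. These are letter matches and not binding sites. The promoters met in MR49F only were close to the promoters met in both lines in CpG and GC box. They were apart from them in the CCAAT box and in ETS. The promoters met in LNCaP only lay between these and the promoters with no peak in CpG, GC box, TATA box and GATA. In ETS, CRE and the E-box the promoters met in LNCaP only had the highest shares of the 4 classes. For the E-box their interval (9.53 to 12.9) covered the shares of the promoters met in MR49F only and in both lines. For CRE it (3.18 to 5.33) overlapped the interval of those met in MR49F only (2.38 to 3.40).

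SMARCC2, whose peaks had no part in forming the classes, separated them too. In MR49F 69.9% (69.3 to 70.6) of MR49F-only BRG1 peaks met a SMARCC2 peak of MR49F, and 11.2% (10.8 to 11.7) met a SMARCC2 peak of LNCaP. LNCaP-only BRG1 peaks met SMARCC2 of LNCaP at 32.9% (32.1 to 33.8) and SMARCC2 of MR49F at 22.9% (22.1 to 23.6). Shared sites carried SMARCC2 of MR49F at 88.0% to 88.3% and of LNCaP at 66.2% to 67.3%. The SMARCC2 list of LNCaP is shorter (25706 peaks against 47615), and the part of list length in the lower LNCaP shares was not tested. Among peaks with 40 or more BRG1 tags, 2057 of 2091 MR49F-only and 205 of 245 LNCaP-only peaks had SMARCC2 in the same line, and 452 and 120 had it in the other line. So 120 of the 245 strong LNCaP-only BRG1 sites still held a SMARCC2 peak in MR49F, where no BRG1 peak was listed.

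Most single-line sites stood alone, and their neighbours were of the same class somewhat more often than the class share. On the main chromosomes the peaks formed 55437 regions, of which 37.1% were MR49F-only and 21.3% LNCaP-only. The next region along the chromosome was of the same class for 43.8% (43.1 to 44.5) of the MR49F-only ones. This held for 26.9% (26.1 to 27.7) of the LNCaP-only ones and for 43.4% (42.7 to 44.0) of shared regions, which made up 41.6%. Stretches of at least 3 consecutive regions of a class with gaps no longer than the distance commonly used to stitch enhancers (between 12 and 13 kb) numbered 562 for MR49F-only, 169 for LNCaP-only and 770 for shared sites. With gaps of up to 5 kb there were 275 MR49F-only and 88 LNCaP-only stretches, and with 50 kb 1330 and 414. At the first of these gap limits the stretches held 9.34% of MR49F-only, 5.07% of LNCaP-only and 11.3% of shared regions, and 69.7% of MR49F-only and 80.2% of LNCaP-only regions stood alone. Within stretches of 5 or more, SMARCC2 of the same line was found at 59.5% (53.2 to 65.5) of the 242 members in MR49F. In LNCaP it was found at 43.0% (34.7 to 51.6) of the 128 members. Among regions standing alone it was found at 70.3% in MR49F and 32.2% in LNCaP. The members of these long stretches came from only 40 stretches in MR49F and 19 in LNCaP. Neighbours in a stretch are not independent, so these intervals are too narrow. Long stretches seldom covered gene starts in LNCaP, where 2.34% of their regions lay near one, against 17.7% in MR49F. Among regions standing alone these shares were 8.97% in LNCaP and 16.7% in MR49F, so the lines differed there too.

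The longest MR49F-only stretch held 15 regions over 56.8 kb at chr6:147207076-147263884, inside STXBP5, which encodes tomosyn, a regulator of vesicle fusion. Its summits were modest, from 14 to 29 tags. The next were 10 regions in ITPRID2 (chr2:181903448-181930337, 14 to 22 tags), 9 in PMEPA1 (chr20:57654386-57697882, 12 to 43 tags), 9 over DDC (chr7:50467921-50502494, 13 to 59 tags) and 8 over CYGB, PRCD and ST6GALNAC2 (chr17:76540508-76568327, 14 to 30 tags). PMEPA1 is an androgen- and TGF-beta-induced inhibitor of TGF-beta signalling, and DDC is a decarboxylase that makes dopamine. The longest LNCaP-only stretch held 17 regions over 92.2 kb at chr21:21127201-21219447 inside NCAM2, a neural adhesion molecule, with 16 to 34 tags. It was followed by 15 regions in NAALADL2 (chr3:175062058-175111949, 22 to 57 tags), 10 and 6 in PPP3CA (chr4:101305855-101341409 and chr4:101036360-101066290) and 7 in BMPR1B (chr4:95045116-95062267). All 10 stretches overlapped gene bodies. The background ratio is the median local background at the summits of a 10 Mb window in MR49F over that in LNCaP. Each median was first divided by its line's median over the autosomes. In the windows of the MR49F-only stretches this ratio was 0.819 (STXBP5), 0.911 (ITPRID2), 0.972 (PMEPA1), 1.09 (DDC) and 0.980 (CYGB). In those of the LNCaP-only stretches it was 0.855 (NCAM2), 0.794 (NAALADL2), 0.859 (both in PPP3CA) and 0.929 (BMPR1B).

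Each peak was given to its nearest protein-coding gene start within 100 kb, and the peaks fell on 14806 genes. For genes without a listed start, both ends of the gene served instead. A gene was called for a line when that line's single-line peaks outnumbered the other's by 3 or more, which held for 1017 genes in MR49F (6.87% of those with a peak) and 301 in LNCaP (2.03%). MR49F-only peaks were in excess at 46.1% of the genes and LNCaP-only peaks at 21.5%. There were 2965 genes with peaks in MR49F alone and 1063 with peaks in LNCaP alone. The counts rest on weaker peaks and distant assignments. They were 93 and 112 when each list was cut to its 10000 strongest peaks, 920 and 135 among peaks whose −log10 q-value reached 5, and 198 and 41 when peaks had to lie within 10 kb.

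STXBP5 led the MR49F genes with 3 LNCaP and 25 MR49F peaks, 22 of them MR49F-only. Its strongest MR49F-only peak, chr6:147178617-147181401, lay 24.4 kb before the gene with 99 tags, whereas the 3 LNCaP peaks had 19 to 26 tags. FNIP2, a folliculin partner in nutrient sensing, had 10 LNCaP and 21 MR49F peaks, 13 of them MR49F-only with 13 to 43 tags. ITPRID2, which binds the inositol trisphosphate receptor, had 2 and 14, and CAPZB, the beta subunit of actin capping protein, had 3 and 14. Of the CAPZB peaks 12 were MR49F-only, and the strongest of these had 52 tags in MR49F. TTC29, a protein of sperm flagella, had 5 and 16 peaks, GRB10, an adaptor that restrains insulin receptor signalling, 17 and 26, and KCTD1, a nuclear repressor of AP-2 factors, 6 and 16. In each of these genes most of the LNCaP peaks were shared, since at most 3 were LNCaP-only. Among the 10000 strongest peaks the excess was 0 at FNIP2 and ITPRID2 and 2 at TTC29, and within 10 kb of a start it was 2 at STXBP5 and 1 at ITPRID2, CAPZB, GRB10 and KCTD1.

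Over all peaks fewer genes were called for LNCaP, but the largest LNCaP excess, at BMPR1B, was above the largest MR49F excess, at STXBP5. BMPR1B, a receptor for bone morphogenetic proteins, had 44 LNCaP and 13 MR49F peaks, 34 of them LNCaP-only and 2 MR49F-only. Its shared peaks reached 78 tags in either line, and its LNCaP-only peaks ran from 16 to 48 tags. NCAM2 had 24 LNCaP peaks and 1 MR49F peak, the most one-sided of these genes; its 23 LNCaP-only peaks had 16 to 57 tags, and the one shared site had 41 tags in LNCaP and 26 in MR49F. PPP3CA, the catalytic subunit of calcineurin, had 38 and 17 peaks, and LIMCH1, an activator of non-muscle myosin, had 62 and 42, of which 41 and 39 were shared. TBL1XR1, a subunit of the NCoR corepressor complex, had 25 and 12. PPP2R2A, the B55-alpha targeting subunit of the phosphatase PP2A, had 20 and 9, with 12 LNCaP-only peaks of 20 to 47 tags and 0 MR49F-only. EPHA3, an ephrin receptor, had 13 and 3, but its one MR49F-only peak, chr3:89125792-89126585, was stronger (58 tags) than any of its 11 LNCaP-only peaks (19 to 33 tags). VGLL4, a TEAD cofactor that competes with YAP, had 22 and 13. Each of these 8 genes had 8 or more shared LNCaP peaks except NCAM2 and EPHA3, with 1 and 2. Among the 10000 strongest peaks the LNCaP excess was 1 at EPHA3 and 2 at VGLL4. With assignment within 10 kb it was 2 at NCAM2 and at PPP3CA, where either end of the gene served.

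**Figure D4:**
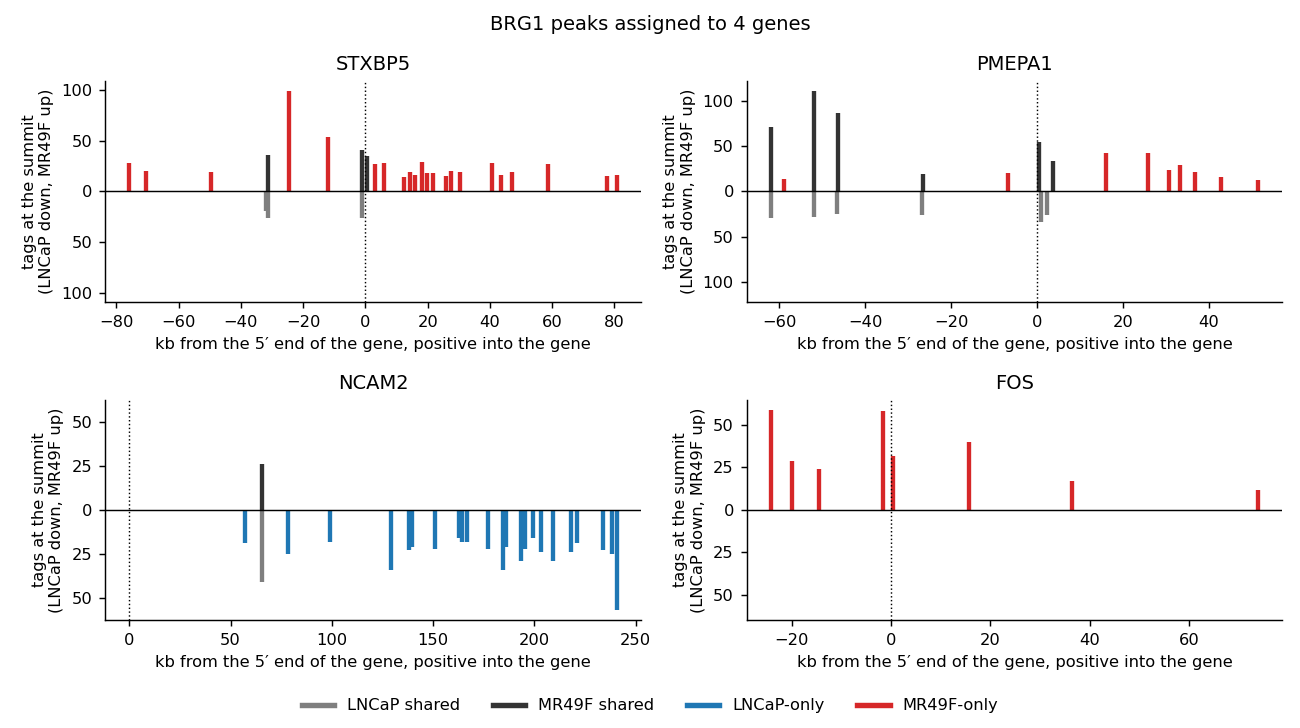
BRG1 peaks assigned to STXBP5, PMEPA1, NCAM2 and FOS, each drawn at its summit (kb from the 5′ end of the gene, dotted line) with its tags, MR49F upward and LNCaP downward. STXBP5 has 22 MR49F-only peaks against 3 shared, NCAM2 has 23 LNCaP-only peaks, and all 8 peaks of FOS are MR49F-only.

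Gene lists of prostate cancer biology are read beside all genes with a peak, of which 6.87% were called for MR49F and 2.03% for LNCaP and where MR49F-only peaks made up 63.4% of assigned single-line peaks. In 8 of the 12 lists this share was between 56.7% and 67.4%, and the other 4 were the neuroendocrine, basal, AP-1 and fibroblast and leukocyte lists. A call needs an excess of 3 peaks, so genes with many peaks can be called more readily for either line. The androgen response list held 191 LNCaP and 192 MR49F peaks on 27 genes, and the neuroendocrine list 15 and 33 on 15. All 14806 genes with a peak held 29135 and 35194. The part of peak number in the calls of each list was not tested. In the androgen response list 27 of 28 genes had a peak, 6 were called for MR49F and 3 for LNCaP, and the single-line peaks were 67 MR49F-only and 48 LNCaP-only (58.3%). PMEPA1 led it with 6 LNCaP and 15 MR49F peaks, and its shared sites reached 34 tags in LNCaP and 111 in MR49F. ADAM7, an epididymal metalloprotease-like protein, had 2 and 7. On the LNCaP side stood PLPP1, a lipid phosphatase (20 and 12), and ZBTB16 (36 and 26). The call of ZBTB16 was lost when peaks under a −log10 q-value of 5 were dropped, where the excess was 1 peak in favour of MR49F. KLK3, which encodes prostate-specific antigen, had 3 shared peaks and no single-line peak in either line, reaching 64 tags in LNCaP and 119 in MR49F at its upstream enhancer region. FKBP5, a chaperone induced by androgen and glucocorticoid, had 2 LNCaP and 7 MR49F peaks, and its strongest MR49F-only peak (86 tags) lay at the gene's 5′ end.

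Among luminal prostate factors ELF3, an epithelial ETS factor (2 LNCaP and 7 MR49F peaks), stood on the MR49F side. Of 15 genes with a peak 2 were called for each line, 7 had more MR49F-only and 3 more LNCaP-only peaks, and the peaks were 38 and 23 (62.3%). FOXA1, the pioneer factor of luminal chromatin, had 11 LNCaP peaks and 9 MR49F peaks, with 5 LNCaP-only peaks of 16 to 24 tags against 1 MR49F-only; its strongest shared peak had 71 tags in LNCaP and 124 in MR49F. Its call for LNCaP was lost with summits within 200 bp (an excess of 2 peaks) and when peaks under a −log10 q-value of 5 were dropped (1 peak). GRHL2, an epithelial factor that opens chromatin, had 23 and 22 peaks with 7 LNCaP-only and 4 MR49F-only, and this direction turned when peaks under a −log10 q-value of 5 were dropped. Neuroendocrine genes, which mark the lineage change seen in some treated tumours, had 20 MR49F-only and 3 LNCaP-only peaks (87.0%), with 12 of 15 genes in excess in MR49F, 1 in LNCaP and 1 called. The called gene was SYT4, a synaptic vesicle protein on chromosome 18, with 1 LNCaP and 4 MR49F peaks; NCAM1, NEUROD1, FOXA2 and ONECUT2 each had an excess of 2. The MR49F-only peaks of SYT4 had 18 to 29 tags, and the background ratio of its window was 1.16. Its excess was 0 when peaks under a −log10 q-value of 5 were dropped. Basal and stem-like genes went the other way, with 13 MR49F-only and 25 LNCaP-only peaks (34.2%) and 2 of 13 genes called, both for LNCaP. These were SOX9, a progenitor transcription factor (11 LNCaP and 4 MR49F peaks, 8 LNCaP-only with 19 to 33 tags), and NOTCH1 (6 and 2), whose excess was 2, below the limit, when weaker peaks were dropped in the same way. The median excess was 1 peak for MR49F per neuroendocrine gene, 1 for LNCaP per basal gene and 0 over all genes, so the members of either list mostly differed by very few peaks.

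AP-1 factors had 22 MR49F-only and 9 LNCaP-only peaks (71.0%), and 2 of 12 genes were called, both for MR49F. FOS accounted for 8 of the 22, all of them at a gene with 0 LNCaP peaks, and the rest of the list held 14 and 9. The FOS peaks lay from 24.2 kb before to 74.0 kb after its start with 12 to 59 tags. The 2 strongest had 59 tags at chr14:75253822-75255535 and 58 tags at chr14:75276844-75278492, the latter 1.53 kb before the start and next to the promoter bases printed above. The excess of FOS was 6 without peaks under a −log10 q-value of 5. It was 2, below the limit, among the 10000 strongest peaks and with assignment within 10 kb. The 10 Mb window of FOS held 100 MR49F-only and 20 LNCaP-only regions, with a background ratio of 1.14. MAFF, a small MAF partner, had 1 and 4 peaks, and its excess of 3 was 2 without peaks under a −log10 q-value of 5. In the mesenchymal list, 2 of 14 genes were called for MR49F and 0 for LNCaP, but 7 had more MR49F-only and 7 more LNCaP-only peaks, and the peaks were 22 and 14 (61.1%). RND3, a small GTPase that lowers actin contractility, had 0 LNCaP and 8 MR49F peaks with 18 to 68 tags, and FN1, fibronectin, had 1 and 4. Among the 10000 strongest peaks the excess was 1 at RND3 and 0 at FN1.

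Growth factor receptor genes had 50 MR49F-only and 35 LNCaP-only peaks (58.8%), with 3 of 23 genes called for each line. GRB10 and IGF1R, the receptor of insulin-like growth factor (11 and 16 peaks), led in MR49F, and EPHA3 and EGFR (16 and 12) in LNCaP; the call of EGFR was lost without peaks under a −log10 q-value of 5, and its direction turned among the 10000 strongest. In the glucocorticoid receptor list 4 of 15 genes were called for MR49F and 2 for LNCaP, 7 had more MR49F-only and 6 more LNCaP-only peaks, and the peaks were 34 and 26 (56.7%). TSC22D3, the glucocorticoid-induced leucine zipper gene on chromosome X, had 4 LNCaP and 10 MR49F peaks in a window with a background ratio of 1.33, and KLF9 had 6 and 11; TIPARP, with 6 and 2, was on the LNCaP side, with an excess of 2 once weaker peaks were dropped. Wnt genes, with 34 MR49F-only and 23 LNCaP-only peaks (59.6%), were called for MR49F in 4 of 20 cases and for LNCaP in 2, and among the latter was TCF7L2, the nuclear partner of beta-catenin (11 LNCaP and 4 MR49F peaks). SWI/SNF subunit genes, with 31 and 15 peaks (67.4%), had 3 of 26 called for MR49F and 0 for LNCaP, with BCL11B (1 and 7 peaks) and BICRA (1 and 4) among them. SMARCA4, which encodes BRG1, had 3 peaks in LNCaP and 5 in MR49F, and its promoter had a peak in both lines. Housekeeping genes had 13 MR49F-only and 9 LNCaP-only peaks (59.1%) with none of 14 called, and fibroblast and leukocyte genes had 5 and 1 (83.3%) with none of 9 called.

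The strongest single-line sites were far stronger in MR49F. Of the top 6 MR49F-only peaks 5 had 132 to 164 tags, the tags of the other could not be solved, and the 6 had a fold of 24.8 to 33.6, and the top 6 LNCaP-only peaks had 63 to 74 tags and a fold of 7.93 to 12.0. The strongest of all lay in ATAD2, a bromodomain ATPase, at chr8:123404545-123406208, with a −log10 q-value of 253 and a SMARCC2 peak in both lines. Another lay at chr2:5110647-5112762 between genes, 581 kb from SOX11, with 150 tags over a background of 3.49. The one at chr12:46792804-46793468 in SLC38A4, an amino acid transporter, had 145 tags, and its SMARCC2 peak was in MR49F alone. Others lay in gene-poor stretches 1363 kb from KCNT2 and 1276 kb from SLITRK5 (164 and 132 tags, SMARCC2 in both lines) and in ZNG1E (132 tags), which has near-identical copies, so that its reads may belong to another of them. In LNCaP the leading peaks lay in ZNF277 (chr7:112268040-112268862, 70 tags), TUBB3 (64 tags), CEMIP2 (68 tags) and NAALADL2 (72 tags), upstream of L3MBTL3 (63 tags) and 0.313 kb upstream of EFS (74 tags). All 12 peaks had SMARCC2 in the same line. In the other line SMARCC2 was present at 4 of the 6 MR49F-only and 2 of the 6 LNCaP-only sites. The window of TUBB3 had a background ratio of 0.496.

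The balance of single-line sites varied by chromosome. Over the autosomes 62.6% (62.0 to 63.1) of single-line regions were MR49F-only. The share was 50.6% (46.1 to 55.2) on chromosome 21, 51.2% (49.2 to 53.3) on chromosome 3 and 52.2% (49.8 to 54.5) on chromosome 6, against 74.0% on chromosome 12, 77.9% (74.8 to 80.7) on chromosome 18 and 90.1% (88.2 to 91.7) on chromosome X. The X chromosome had 1010 MR49F-only, 111 LNCaP-only and 446 shared regions. Local background moved with this balance: the background ratio, taken over whole chromosomes, was 1.33 on X, 1.19 on 18 and 1.15 on 12, and 0.943, 0.855 and 0.815 on 3, 6 and 21. It did not do so everywhere, since chromosomes 13 and 19 had ratios of 0.794 and 0.753 and MR49F-only shares of 70.6% and 69.1%. Across 293 windows of 10 Mb the share was 53.4% (51.3 to 55.5) where the ratio was under 0.8, 61.5% to 62.7% between 0.9 and 1.1, and 79.9% (78.3 to 81.5) at 1.2 or more. Without the X chromosome it was 52.5% (50.4 to 54.7) in the 18 windows under 0.8 and 74.4% (72.1 to 76.5) in the 14 windows at 1.2 or more. Background of this kind follows the number of DNA copies among other things, and its part in the single-line calls was not tested.

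**Figure D5:**
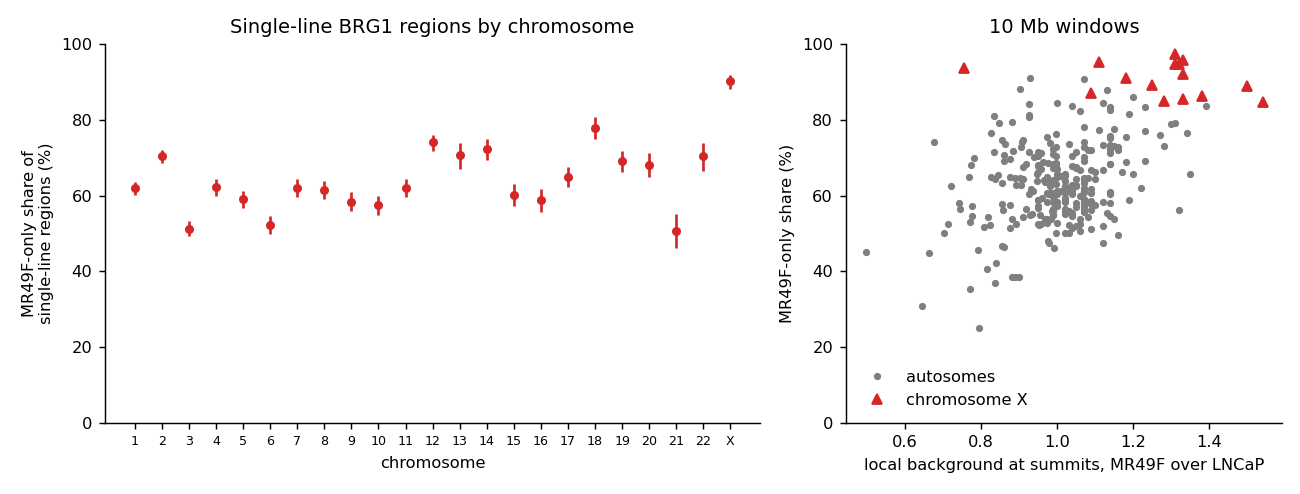
Left, MR49F-only share of single-line BRG1 regions (%) by chromosome, with Wilson 95% intervals; right, the same share in 10 Mb windows with at least 30 single-line regions against the ratio of local background (MR49F over LNCaP). Chromosome X lies at 90.1%, and windows with a ratio of 1.2 or more hold 79.9% MR49F-only regions.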

How the data were processed

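BRG1 and SMARCC2 ChIP-seq peaks were deposited for 1 library per line and antibody. Per the submitters' processing notes, the build was hg38 and the tools included MACS2 2.1.0, SAMtools and BWA 0.7.10. The treatment of controls, read filters and duplicates was not given in the sources used here. In the deposited lists each peak has a fold enrichment (a ratio over local background), a −log10 p-value and a −log10 q-value, all from the authors' caller on single libraries, with no pooling. The lowest deposited −log10 q-value was 2.00 in LNCaP and 2.01 in MR49F.

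Overlaps, widths and shifts were computed with Python 3.11.15, NumPy 2.4.6, pandas 2.3.3 and SciPy 1.17.1, and drawn with matplotlib 3.10.9. The summit is the peak start plus the deposited offset. A shared peak was paired with the overlapping peak of nearest summit. Tags at a summit were solved from fold and p-value as MACS2 defines them and came out whole, within 0.02, for 99.997% of LNCaP and 99.926% of MR49F peaks. Widths were compared within classes of tags rather than of q-values, as first planned, because q-values depend on the list. Matching and solving were tested on simulated peaks. Gene starts came from RefSeq promoter windows on GRCh38.p14, which list 15841 of 20033 protein-coding genes. For the others, all genes of chromosome 8 and PPP3CA among them, both ends of the gene span served. Peaks were assigned to the nearest such point within 100 kb (79.9% of peaks).

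Named were the 6 strongest single-line peaks, the 5 longest stretches and the 8 genes of largest excess of each line, the leading members of each gene list in each direction, SMARCA4, and the 5 largest shifts where the −log10 q-value reached 20. Some items that this rule names are not reported here. KLK3, FKBP5 and FOS are discussed beyond that rule after their values were seen. The members and lists were chosen with earlier results of these data known. Of 231 list entries 1 did not match a gene. Motifs at distal peaks were not searched, since no genome was used here.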

Additional observations from a re-analysis of the deposited data

How the results depend on the processing

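No paired analysis was possible because each line has 1 BRG1 library, and no replicate could be left out for the same reason. Values follow in the order reciprocal overlap of 50%, summits within 200 bp, −log10 q-value of 5 or more, and 10000 strongest peaks. The share of LNCaP peaks shared (67.3%) became 41.5%, 44.2%, 68.0% and 44.3%, and that of MR49F peaks (53.5%) 33.9%, 36.1%, 47.4% and 43.7%, with 54.3% on autosomes only. The width ratio of shared over single-line peaks (1.5 in LNCaP, 1.6 in MR49F) stayed above 1: 1.27, 1.42 and 1.22 in LNCaP (summits, q-value, strongest) and 1.38, 1.35, 1.45 and 1.2 in MR49F. The median shift of 100 bp became 86 bp, 82 bp and 44 bp (overlap, q-value, strongest). The share of MR49F-only regions next to their own class (43.8%) became 42.3%, 41.9%, 48.5% and 40.9%, with 42.6% on autosomes, and for LNCaP-only (26.9%) 28.1%, 23.9% and 40.2% (overlap, q-value, strongest). Stretches numbered 275 and 1330 (MR49F-only) and 88 and 414 (LNCaP-only) with gaps of 5 and 50 kb. The share near a gene start became 22.1%, 21.0%, 23% and 13.6% for LNCaP shared, 20.3%, 21.0%, 20.9% and 20.9% for MR49F-only, and 16.3%, 16.9%, 10.5% and 16.2% for LNCaP-only peaks; within 5 kb it was 31.5%, 24.4% and 15.6%. Genes called numbered 93 (MR49F) and 112 (LNCaP) with the strongest peaks, 198 and 41 within 10 kb, and 135 in LNCaP by q-value. SMARCC2 peaks covered the BRG1 summit at 64.8% of MR49F-only and 27.3% of LNCaP-only peaks.

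Of 59 named genes, 59 kept the direction of their excess under reciprocal overlap and under summit matching, 48 by q-value, 56 on autosomes (the other 3 lie elsewhere), 42 with assignment within 10 kb, where 17 had no excess left, and 34 with the strongest peaks, where 20 had none left. Direction turned by q-value for GRHL2 (to 3), NKD1 (1), SMARCA2 (2) and ZBTB16 (1), and with the strongest peaks for ARID1B (−1), CD44 (−1), EGFR (1), GRHL2 (1) and ZNRF3 (−2), where positive values favour MR49F. The causes were not tested. The median summit rests on 27 tags, and depth was not varied.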
